A study of Homo sapiens with 2 samples.

Results

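The genes described here encode the proteases and mitochondrial proteins that carry out apoptosis. They are the caspase genes CASP2, CASP8, CASP9 and CASP6, the apoptosome scaffold APAF1, the mitochondrial proteins HTRA2 and DIABLO, and the inhibitor XIAP. The 8 genes were chosen by symbol from a transcript table of 11697 gene symbols, and 22 of its 29373 listed transcripts belong to them. The measurements are RNA-seq levels in THP-1, an established human monocytic cell line from an acute myeloid leukaemia. A culture treated with 2 µM of an agent named OPA1 in the labels for 48 h gave 1 library, and a culture that received the solvent DMSO for 48 h gave 1 library. The agent shares its name with a mitochondrial gene, and no further identity is given in the sources used here. The title of the series names opioid receptors, leukaemia and DNA demethylation by TET enzymes, so the comparison asks which genes differ after the treatment. With 1 library for each culture there is no replicate spread, so every difference below is a description of 2 libraries and carries no test.

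Caspases are cysteine proteases that are made as inactive precursors. Initiator caspases are activated by being brought together on a scaffold: CASP8 at death receptors, CASP9 on the APAF1 wheel that assembles when cytochrome c leaves the mitochondria, and CASP2 on a platform built by PIDD1 and CRADD. CASP6 is one of the executioner caspases that cut cellular substrates. XIAP binds and blocks caspases, and DIABLO (also called SMAC) and HTRA2 (also called OMI) bind XIAP once released from the mitochondria.

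A pair of short coding stretches ties these genes together, and they are shown because some listed transcripts carry them and others do not. The first is the stretch around the catalytic cysteine of the caspases. The 15 capitals match the codons CAN, GCN, TGN, any codon and GGN, read in frame on the coding strand, in which TGN stands for the cysteine and N for any base. The lines give it in 51 bases of coding sequence from the GENCODE release 29 entry of each transcript, 5′ to 3′.
CASP2-201: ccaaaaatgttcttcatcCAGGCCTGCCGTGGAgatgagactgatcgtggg
CASP8-203: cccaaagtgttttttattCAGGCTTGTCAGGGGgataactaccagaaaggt
CASP9-201: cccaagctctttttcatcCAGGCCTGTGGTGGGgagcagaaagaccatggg
CASP6-201: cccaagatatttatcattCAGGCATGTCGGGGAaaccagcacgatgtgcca
The stretch begins at codon 318 in CASP2-201, codon 343 in CASP8-203, codon 285 in CASP9-201 and codon 161 in CASP6-201. Across the annotation, 486 of 83129 coding transcripts (0.585%) hold the pattern in frame.

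The second stretch encodes the IAP-binding motif of the mitochondrial proteins, which lies at the new amino terminus once the targeting part has been cut away. The 12 capitals begin with the pattern GCNGTNCCN in frame. That shorter pattern is common, in 8315 of the 83129 coding transcripts (10.0%).
HTRA2-201: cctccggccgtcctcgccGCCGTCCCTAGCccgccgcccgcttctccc
DIABLO-201: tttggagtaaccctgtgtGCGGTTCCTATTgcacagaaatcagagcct
The motif begins at codon 134 in HTRA2-201 and at codon 56 in DIABLO-201.

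Of the 8 genes, HTRA2 was higher and CASP2 was lower in the OPA1 library, both by more than 2-fold, while CASP8, CASP9, CASP6, APAF1 and DIABLO stayed within 1.29-fold of the DMSO library. Levels are FPKM (fragment numbers divided by transcript length and by library size), summed over the listed transcripts of a gene. XIAP had a mean of 0.652 FPKM over both libraries and did not reach the minimum of 1 FPKM, so 7 of the 8 genes entered the counts. Ratios are log2 of OPA1 over DMSO after adding 1 FPKM to each, which makes differences of low genes smaller. On that scale 1 of 7 genes was 2-fold or more higher and 1 of 7 was 2-fold or more lower. Among all 10601 genes above the same minimum, 1.97% were higher by this measure and 1.99% lower, together 3.96%. The median log2 ratio of the 7 genes was 0.18, with 5 above 0 and 2 below, against a median of 0.00 over all genes.

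**Figure D1:**
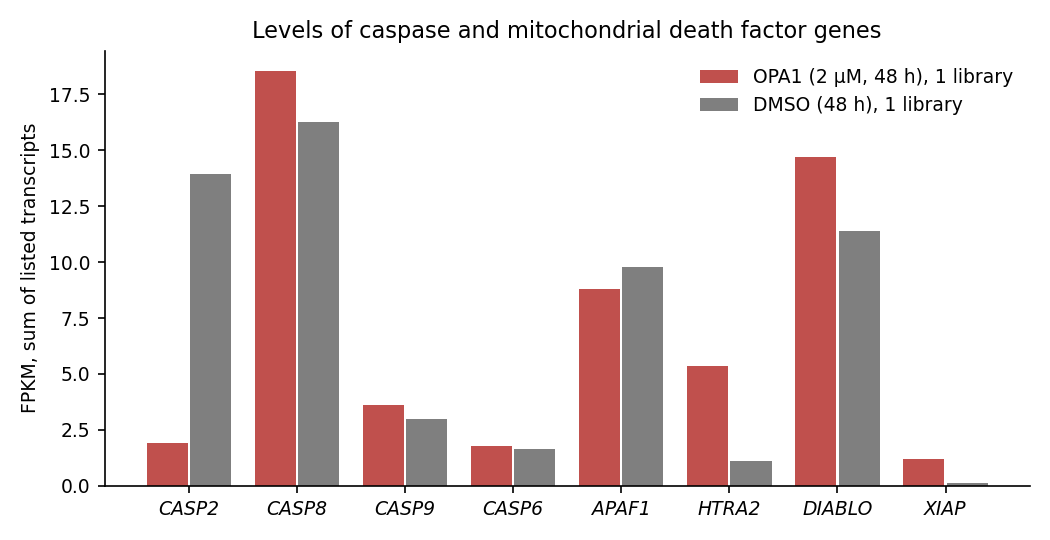
FPKM of each gene, summed over its listed transcripts, in the OPA1 library (red) and the DMSO library (grey), 1 library each and so without error bars. CASP2 stands at 1.91 FPKM with OPA1 against 13.9 FPKM with DMSO, and HTRA2 at 5.34 against 1.09 FPKM.

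The initiator caspases did not move together. CASP2 (chromosome 7, 142985308 to 143004789, plus strand, hg19) was at 1.91 FPKM in the OPA1 library and 13.9 FPKM in the DMSO library, 7.32-fold lower. Its log2 ratio of -2.36 was the 13th lowest of the 10601 genes, and 0.372% of the 2685 genes whose mean lay within 1.5 times its own had a ratio this far from 0. All of this signal was on CASP2-201, an 11-exon transcript with 1356 coding bases and the only CASP2 transcript listed. GENCODE release 29 annotates 7 CASP2 transcripts, 3 of them protein-coding, and the others were not analysed here, so whether the sum over all CASP2 transcripts differs was not tested. CASP2 thus stood close to the low CASP6 in OPA1-treated cells, whereas in DMSO-treated cells only CASP8 was higher among the 8 genes.

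CASP8 (chromosome 2, 202098166 to 202152434, plus strand) had the highest level of the 8 genes in both libraries, at 18.5 FPKM with OPA1 and 16.3 FPKM with DMSO. The log2 ratio was 0.18, and 39.7% of genes of similar mean had a ratio at least this far from 0. CASP9 (chromosome 1, 15818765 to 15850790, minus strand) was at 3.62 FPKM with OPA1 and 2.97 FPKM with DMSO, a log2 ratio of 0.22. Its only listed transcript, CASP9-201, holds the active-site codons. The executioner CASP6 (chromosome 4, 110609898 to 110624629, minus strand) was low in both libraries, at 1.78 FPKM with OPA1 and 1.62 FPKM with DMSO, again on 1 listed transcript with the active-site codons. Ratios at least as far from 0 were found in 46.3% of genes of similar mean for CASP9, and in 77.8% for CASP6.

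APAF1 (chromosome 12, 99038919 to 99129211, plus strand) was at 8.79 FPKM with OPA1 and 9.77 FPKM with DMSO, a log2 ratio of -0.14. The summed RNA level of its 5 listed transcripts was 2.43 times that of CASP9-201, the 1 listed transcript of its partner, with OPA1 and 3.29 times with DMSO. GENCODE release 29 annotates 8 protein-coding CASP9 transcripts, and the others were not analysed here.

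Of the mitochondrial proteins, HTRA2, a serine protease of the intermembrane space (chromosome 2, 74756504 to 74760475, plus strand), was 4.88-fold higher, at 5.34 FPKM in the OPA1 library and 1.09 FPKM in the DMSO library. Its log2 ratio of 1.60 was the 62nd highest of the 10601 genes, a distance from 0 that 1.71% of the 1988 genes of similar mean reached. Both listed transcripts were higher. HTRA2-201 was at 3.80 FPKM with OPA1 and 1.05 FPKM with DMSO, and HTRA2-203 was at 1.54 FPKM with OPA1 and 0.039 FPKM with DMSO. Both hold the IAP-binding codons; HTRA2-203 is annotated without a complete 5′ end. The gene was thus close to 1 FPKM with DMSO, a level at which ratios are less certain.

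HTRA2 overlaps its neighbours on the opposite strand, and whether the libraries kept strand is not given in the sources used here. AUP1, which shares 563 bases of its span with HTRA2, was at 11.0 FPKM with OPA1 and 10.6 FPKM with DMSO. LOXL3, which shares 96 bases, was listed at 0 with OPA1 and at 1.32 FPKM with DMSO. AUP1 was thus level and LOXL3 differed in the other direction from HTRA2; reads from such overlaps cannot be told apart without strand. No other listed gene overlapped the span of any of the 8.

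DIABLO (chromosome 12, 122692216 to 122712081, minus strand) was at 14.7 FPKM with OPA1 and 11.4 FPKM with DMSO, 1.29-fold higher with a log2 ratio of 0.34. That distance was reached by 20.2% of genes of similar mean. XIAP (chromosome X, 122993662 to 123047826, plus strand) was listed with a single transcript, XIAP-205, at 1.17 FPKM with OPA1 and 0.132 FPKM with DMSO. The plain ratio was 8.89 and the log2 ratio after adding 1 FPKM was 0.94, below 2-fold. Every listed transcript had at least 0.5 FPKM in 1 library, which XIAP-205 reached only with OPA1. GENCODE release 29 annotates 5 protein-coding XIAP transcripts, of which XIAP-205 is the only one in the table, so the total XIAP level was not analysed here.

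The order of levels with OPA1 was CASP8, DIABLO, APAF1, HTRA2, CASP9, CASP2, CASP6 and XIAP. In the DMSO library it was CASP8, CASP2, DIABLO, APAF1, CASP9, CASP6, HTRA2 and XIAP. Leaving out CASP2 and HTRA2, the other 6 kept one order in both libraries. With 1 library each, it cannot be said which neighbours in these orders differ beyond their spread. Summed over the 8 genes, the libraries held 55.8 FPKM with OPA1 and 57.2 FPKM with DMSO. In bulk RNA, fewer cells with a transcript and less of it in each cell cannot be told apart.

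**Figure D2:**
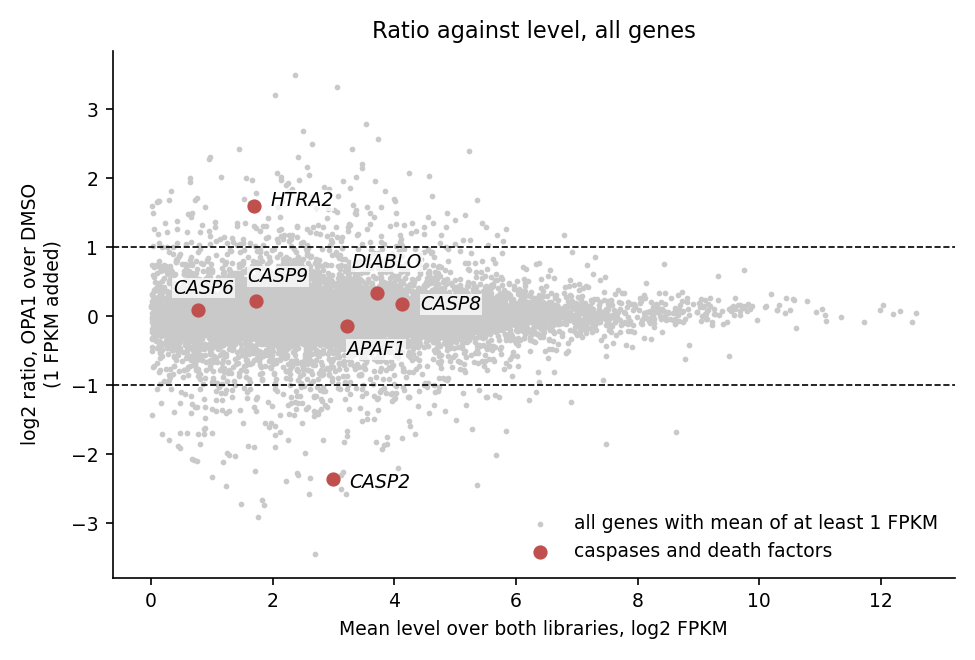
Log2 ratio of OPA1 over DMSO (1 FPKM added) against the mean level over both libraries (log2 FPKM) for 10601 genes (grey points) and the 7 caspase and death factor genes above the minimum (red points). Dashed lines mark 2-fold; HTRA2 at 1.60 and CASP2 at -2.36 lie outside them and the other 5 genes inside.

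Below the gene sums, several genes were divided differently over their transcripts. Of the 22 listed transcripts, 3 were 2-fold or more higher with OPA1 (APAF1-210, HTRA2-201 and HTRA2-203) and 1 was 2-fold or more lower (CASP2-201). Over all 29373 transcripts 7.78% were higher by this measure and 8.04% lower, together 15.8%. Every listed transcript had at least 0.5 FPKM in 1 library. APAF1-201, APAF1-210, HTRA2-203 and XIAP-205 reached this only with OPA1. CASP8-205, CASP8-206, CASP8-214, DIABLO-205 and DIABLO-209 reached it only with DMSO. For such transcripts the direction of the difference was fixed by the listing. The median log2 ratio of the 22 transcripts was -0.06, against -0.01 over all transcripts. Of the 4 genes with more than 1 listed transcript and a mean of at least 1 FPKM, none had a different most abundant transcript in the 2 libraries, while 26.8% of the 7207 such genes in the table did. These were CASP8-203, APAF1-202, HTRA2-201 and DIABLO-201. The share of FPKM that would have to move to another listed transcript to turn the division in one library into that of the other was 33.1% for APAF1, 25.2% for HTRA2, 19.5% for CASP8 and 12.3% for DIABLO. Over the 7207 genes the median of this share was 13.8% and the upper quartile 33.3%. None of the 4 genes lay above that quartile and DIABLO lay below the median, so such divisions were common in the table.

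**Figure D3:**
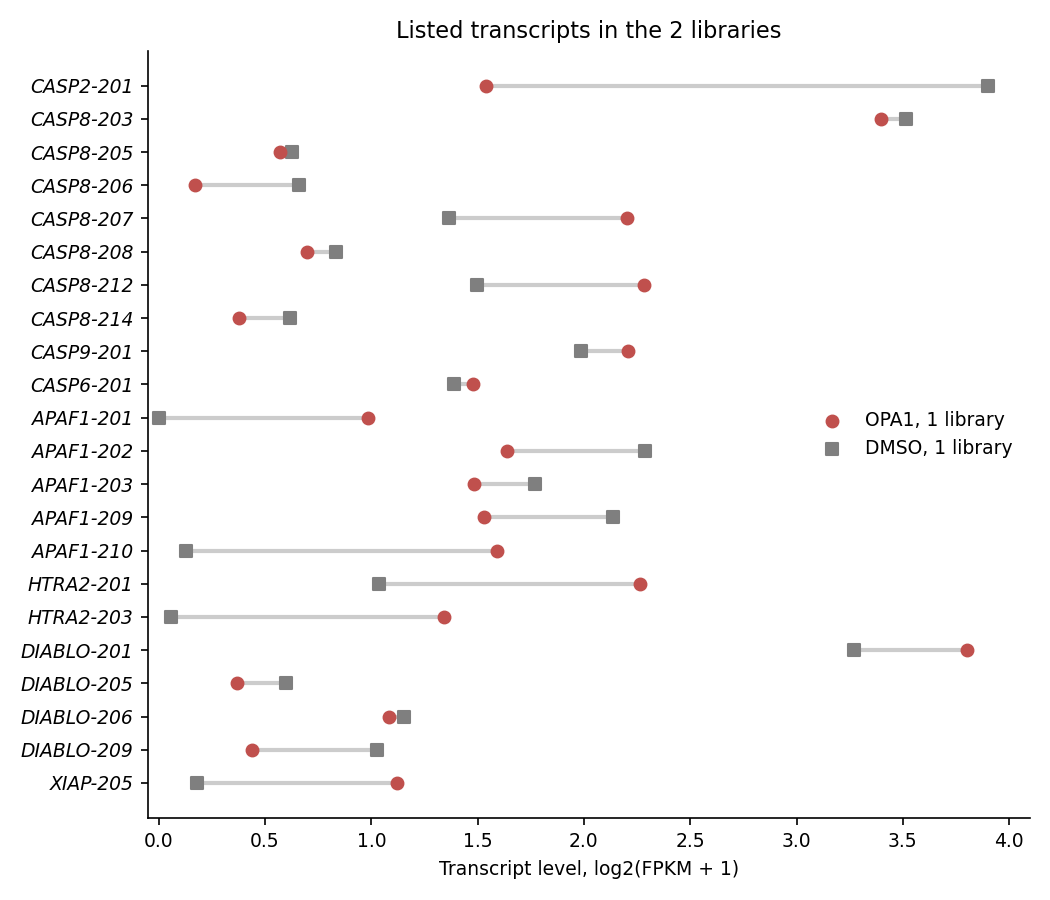
Level of each of the 22 listed transcripts as log2(FPKM + 1) in the OPA1 library (red circles) and the DMSO library (grey squares), 1 library each, joined by a line. The longest lines belong to CASP2-201, which is lower with OPA1, and to APAF1-210, HTRA2-203 and HTRA2-201, which are higher.

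The coding sequence of APAF1 comes in forms that differ by a pair of optional segments, shown because the long listed forms are told apart by them. The first is a stretch of 33 bases between the caspase-recruitment domain and the nucleotide-binding part. The second is an exon of 129 bases that encodes an additional WD repeat in the part that senses cytochrome c. Both are given in capitals with 12 flanking bases on each side, from APAF1-210 in GENCODE release 29, 5′ to 3′ on the plus strand.
APAF1 33-base segment: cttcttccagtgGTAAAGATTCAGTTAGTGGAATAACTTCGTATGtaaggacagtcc
APAF1 129-base exon: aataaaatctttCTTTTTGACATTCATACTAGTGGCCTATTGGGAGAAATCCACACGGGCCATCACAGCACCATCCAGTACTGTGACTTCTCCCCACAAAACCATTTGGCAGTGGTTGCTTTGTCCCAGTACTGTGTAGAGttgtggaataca
APAF1-210 holds both segments, APAF1-209 only the exon, APAF1-202 only the 33 bases and APAF1-203 neither. APAF1-201 has the 33 bases but a coding sequence of only 1014 bases that ends before the WD repeats.

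APAF1-210, the form with both segments, was at 2.01 FPKM with OPA1 and 0.094 FPKM with DMSO. The short form APAF1-201 was at 0.980 FPKM with OPA1 and listed at 0 with DMSO, so no fold is given. The other 3 forms were lower: APAF1-202 was at 2.11 FPKM with OPA1 and 3.88 FPKM with DMSO. APAF1-209 was at 1.89 FPKM with OPA1 and 3.39 FPKM with DMSO, and APAF1-203 was at 1.80 FPKM with OPA1 and 2.40 FPKM with DMSO. The OPA1 library thus held 4 long forms at nearly equal levels, between 1.80 and 2.11 FPKM, while in the DMSO library 3 of them were at 1 FPKM or more.

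Summed by segment, the forms with the 129-base exon were at 3.90 FPKM with OPA1 and 3.48 FPKM with DMSO. Long forms without it were at 3.91 FPKM with OPA1 and 6.28 FPKM with DMSO. The exon-containing share of the listed APAF1 FPKM was 44.4% with OPA1 and 35.7% with DMSO. Forms with the 33 bases made up 58.1% of it with OPA1 and 40.7% with DMSO. Both optional segments had a larger share in the OPA1 library, and APAF1-210 was the only long form of either sum that was higher. APAF1-210 and the short APAF1-201 reached the 0.5 FPKM needed for listing only with OPA1, so their direction was fixed by the listing. The larger shares rest on these forms, while APAF1-209, with the exon, and APAF1-202, with the 33 bases, were lower with OPA1. They are therefore not a separate result about the segments.

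**Figure D4:**
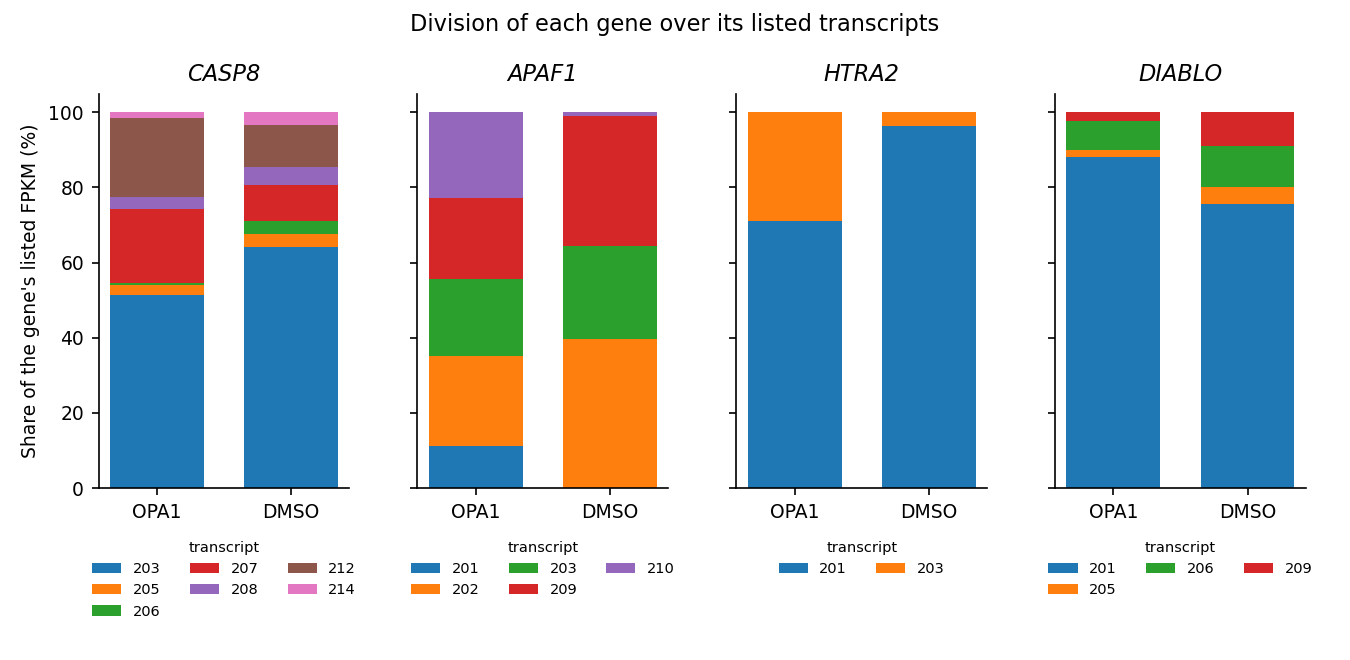
Share of each gene's listed FPKM (percent) that falls on each listed transcript, for the 4 genes with more than 1 listed transcript, in the OPA1 library (left bar) and the DMSO library (right bar). APAF1-210 takes 22.9% of APAF1 with OPA1 against 0.962% with DMSO, and CASP8-203 takes 51.4% of CASP8 with OPA1 against 64.1% with DMSO.

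The 7 listed CASP8 transcripts begin in distinct places. A group of 4 (CASP8-206, CASP8-207, CASP8-212 and CASP8-214) starts between 202098166 and 202098229 on chromosome 2 of hg19, and 3 (CASP8-203, CASP8-205 and CASP8-208) start 24530 or more bases downstream of these. Transcripts with the upstream start summed to 7.90 FPKM with OPA1 and 4.51 FPKM with DMSO, 1.75-fold higher. Those with the downstream start summed to 10.6 FPKM with OPA1 and 11.8 FPKM with DMSO. The upstream start accounted for 42.6% of the listed CASP8 FPKM with OPA1 and 27.7% with DMSO.

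Within the upstream group the long forms and the short forms differed in direction. CASP8-207 was at 3.61 FPKM with OPA1 and 1.57 FPKM with DMSO, and CASP8-212 was at 3.87 FPKM with OPA1 and 1.83 FPKM with DMSO. CASP8-206 was at 0.125 FPKM with OPA1 and 0.579 FPKM with DMSO, and CASP8-214 was at 0.301 FPKM with OPA1 and 0.533 FPKM with DMSO. These short forms reached the 0.5 FPKM needed for listing only with DMSO. Their direction was thus fixed by the listing, and the contrast with the long forms is not a separate result. The most abundant transcript, CASP8-203 of the downstream group, was nearly level at 9.52 FPKM with OPA1 and 10.4 FPKM with DMSO. None of the 7 reached a 2-fold difference after adding 1 FPKM.

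The active-site codons printed above are in CASP8-203, CASP8-205, CASP8-207 and CASP8-212, and absent from CASP8-206, CASP8-208 and CASP8-214, the last of which is annotated without a complete 3′ end. Transcripts with the active-site codons summed to 17.5 FPKM with OPA1 and 14.4 FPKM with DMSO. The 3 without them summed to 1.05 FPKM with OPA1 and 1.89 FPKM with DMSO. CASP8 RNA with these codons thus made up 94.3% of the listed CASP8 FPKM with OPA1 and 88.4% with DMSO. GENCODE release 29 annotates 15 protein-coding CASP8 transcripts, of which 7 are listed. CASP8-206 and CASP8-214, without the codons, and CASP8-205, with them, reached the 0.5 FPKM needed for listing only with DMSO. The difference between the shares may therefore partly follow from the listing. A further choice is a segment of 45 coding bases behind the death effector domains, which separates CASP8-212 from CASP8-207 and is shown because both were higher with OPA1.
CASP8 45-base segment: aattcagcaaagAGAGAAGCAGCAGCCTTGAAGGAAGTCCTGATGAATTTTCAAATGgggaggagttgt
Capitals mark the segment, taken from CASP8-212 with 12 bases on each side. Transcripts that hold it summed to 4.48 FPKM with OPA1 and 2.95 FPKM with DMSO. This was 24.2% of the listed CASP8 FPKM with OPA1 and 18.1% with DMSO.

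The annotated starts were also read for CG dinucleotides. RefSeq windows of 300 bases around each annotated start (250 before and 50 after, build GRCh38.p14) hold 6, 5 and 6 CG dinucleotides at the 3 CASP8 starts. The windows of the other 7 genes hold between 4, at a CASP2 start 1373 bases from that of CASP2-201, and 42 at the APAF1 start. Windows with 10 (XIAP) and 13 (DIABLO) are among them, and the median of 35116 windows is 14. The 100 bases before each CASP8 start are shown because the gene's FPKM is divided between them; capitals mark CG.
upstream start, GRCh38.p14 chr2:201233363-201233462, plus strand: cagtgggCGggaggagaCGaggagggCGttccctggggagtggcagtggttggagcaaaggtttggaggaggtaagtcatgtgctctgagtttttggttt
start of CASP8-205, GRCh38.p14 chr2:201257935-201258034, plus strand: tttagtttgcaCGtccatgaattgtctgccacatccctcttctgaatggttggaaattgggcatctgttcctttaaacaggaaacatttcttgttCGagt
start near CASP8-203, GRCh38.p14 chr2:201260436-201260535, plus strand: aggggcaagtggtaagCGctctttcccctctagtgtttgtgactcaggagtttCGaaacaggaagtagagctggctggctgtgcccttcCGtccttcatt
These are counts of letters in the reference, and methylation of these stretches was not measured in the data used here.

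DIABLO was carried mainly by DIABLO-201, at 12.9 FPKM with OPA1 and 8.64 FPKM with DMSO. DIABLO-206 was at 1.12 FPKM with OPA1 and 1.23 FPKM with DMSO, and both of these hold the IAP-binding codons. DIABLO-205 was at 0.292 FPKM with OPA1 and 0.513 FPKM with DMSO. DIABLO-209 was at 0.356 FPKM with OPA1 and 1.04 FPKM with DMSO; GENCODE release 29 gives the same transcript ID as a retained intron, although the table types it as protein-coding. RNA with the IAP-binding codons made up 95.6% of the listed DIABLO FPKM with OPA1 and 86.4% with DMSO. GENCODE release 29 annotates 20 DIABLO transcripts, of which 4 are listed. DIABLO-205 and DIABLO-209 reached the 0.5 FPKM needed for listing only with DMSO, so their direction was fixed by the listing. The difference between the shares may therefore partly follow from it. DIABLO-205 is annotated without a complete 5′ end, and DIABLO-209 has no coding sequence in GENCODE release 29. Whether the full RNA of either holds these codons cannot be read from its entry, and both were counted as without them.

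Other genes of the death pathways were compared by a list of 32 genes in 5 groups, of which 28 reached a mean of 1 FPKM. After adding 1 FPKM none was 2-fold apart, where 3.96% of all genes were, and for 28 genes this is near that share. The plain ratio of DFFB was 2.29. The median log2 ratio of the 28 genes was 0.02, with 15 above 0 and 13 below. Among the other caspases, 3 of 5 measured were above 0 and 2 below. CASP10, a relative of CASP8, was at 1.61 FPKM with OPA1 and 0.831 FPKM with DMSO. The inflammatory caspase CASP4 was at 9.47 FPKM with OPA1 and 10.1 FPKM with DMSO.

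Of the death receptors and adaptors, 4 of 9 were above 0 and 5 below. TNFRSF10B, a receptor for TRAIL, was at 4.41 FPKM with OPA1 and 7.22 FPKM with DMSO. The adaptor TRADD was at 3.50 FPKM with OPA1 and 2.10 FPKM with DMSO. The scaffold parts of CASP2 differed in direction: PIDD1 was at 3.35 FPKM with OPA1 and 2.16 FPKM with DMSO, while CRADD, named after its values were seen, was at 3.71 FPKM with OPA1 and 4.49 FPKM with DMSO. FADD, which recruits CASP8 and was likewise named afterwards, was at 16.9 FPKM with OPA1 and 18.2 FPKM with DMSO.

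The mitochondrial factors were close to level, with 2 of 4 above 0. CYCS, which encodes the cytochrome c that APAF1 binds, was at 89.2 FPKM with OPA1 and 92.0 FPKM with DMSO, well above the levels of APAF1 in the same libraries. AIFM1 was at 32.2 FPKM with OPA1 and 34.8 FPKM with DMSO, and the nuclease ENDOG at 9.78 FPKM with OPA1 and 9.04 FPKM with DMSO. Of the IAP genes and the XIAP antagonist XAF1, 1 of 5 was above 0. XAF1 was at 22.7 FPKM with OPA1 and 22.2 FPKM with DMSO. BIRC2 was at 9.08 FPKM with OPA1 and 9.52 FPKM with DMSO. NAIP, which has near-identical copies in the genome and is therefore uncertain, was at 1.23 FPKM with OPA1 and 1.55 FPKM with DMSO.

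All 5 caspase substrates and nuclease genes were above 0, with a median log2 ratio of 0.22. The nuclease DFFB was at 1.66 FPKM with OPA1 and 0.726 FPKM with DMSO. Its inhibitor DFFA, which caspases cut to free the nuclease, was at 16.7 FPKM with OPA1 and 13.6 FPKM with DMSO. ACIN1, a chromatin-condensing substrate, was at 51.4 FPKM with OPA1 and 43.8 FPKM with DMSO. No p-value is given for any of these lists.

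**Figure D5:**
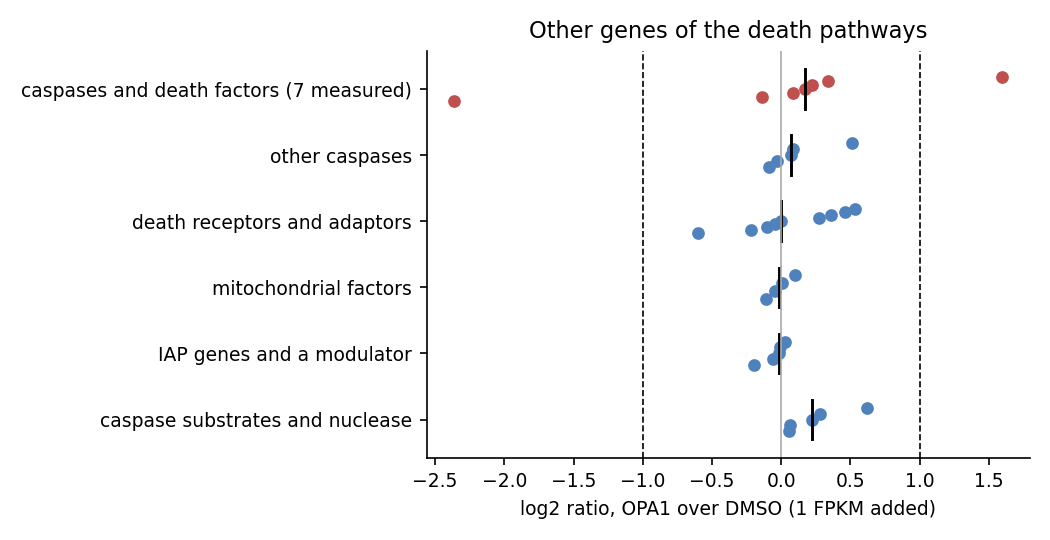
Log2 ratios of OPA1 over DMSO (1 FPKM added) for the 7 caspase and death factor genes (red) and the 28 other measured death pathway genes in 5 groups (blue). Each point is a gene, black bars are group medians and dashed lines mark 2-fold; HTRA2 and CASP2 are the points outside.

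As to the libraries themselves, the listed FPKM summed to 331515 with OPA1 and 325059 with DMSO, and the read depth behind them is unknown. Of 10 markers of the monocytic line 9 were listed, all at 1 FPKM or more in both libraries, with CD14 not listed. Markers of T cells, erythroid cells, epithelium and fibroblasts were not listed, and the 2 listed B cell markers summed to 0.638 FPKM with OPA1 and 0.733 FPKM with DMSO.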

How the data were processed

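Total RNA of 2 THP-1 cultures was sequenced with standard Illumina libraries, per the labels' protocols. The authors deposited FPKM per transcript; HISAT, StringTie, edgeR and hg19 are named in the submitters' processing notes, without versions or roles. All 29373 listed transcripts were of type protein_coding with at least 0.5 FPKM in 1 library; 2 emptied lines were not used here. Groups came from the treatment label. The 8 genes and the lists were chosen with earlier results of these data known. Named were all 8 genes, every transcript of them and up to 3 genes per pathway group with the largest log2 ratios; some genes of these lists count in the totals but are not reported here.

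FPKM was summed per symbol. Genes needed a mean of at least 1 FPKM, and log2 ratios used a pseudocount of 1 FPKM. A search for the step of 1 read in 300 low genes of 1 listed transcript reached an alignment of 0.13 with OPA1 and 0.184 with DMSO, where 1 would mean whole reads, against at most 0.158 and 0.184 in 20 jittered sets. Counts could therefore not be rebuilt, and a count test was not possible. Alternatives were another pseudocount, other minimum levels, 3 scalings and 2 ways to take the gene level. The script that sums, filters and counts genes was tested on simulated data with known changes; this is no test of the difference between the cultures. Transcript structure and sequence came from GENCODE release 29 by transcript ID (22 of 22 matched, 19 with the same version), and promoter windows from RefSeq; coordinates of the genes are those of the table. Software was matplotlib 3.10.9, pandas 2.3.3, numpy 2.4.6 and Python 3.11.15.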

Additional observations from a re-analysis of the deposited data

How the results depend on the processing

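HTRA2 stayed at least 2-fold higher and CASP2 at least 2-fold lower under every alternative in which they were measured. A minimum mean of 5 FPKM removes HTRA2, CASP9 and CASP6, leaving 0 genes higher and a median log2 ratio of 0.019 for the remaining genes. The log2 ratio of HTRA2 was 2.19 with a pseudocount of 0.1 FPKM, 1.97 after rescaling both libraries to one sum and 1.22 on its most abundant transcript; that of CASP2 was -2.81 and -2.70 under the first 2 of these. Rescaling raised the values of both libraries to a larger sum while the pseudocount and the minimum stayed at 1. It therefore also acted as a smaller pseudocount and a lower minimum, and its changes are not those of library size alone. Under it XIAP passed the minimum at a log2 ratio of 1.69, so that 2 of the 8 genes were higher. CASP8 turned to -0.12 and APAF1 moved to -0.65 on the most abundant transcript, and DIABLO to 0.53. Of the listed transcripts, 7 were higher and 3 lower with a pseudocount of 0.1 FPKM, 6 higher and 3 lower after rescaling, and 0 higher at a minimum of 5 FPKM. The shares over all listed transcripts were not computed under these settings, so these counts are not a result about the 8 genes. In the pathway list 1 gene (DFFB) became 2-fold higher with a pseudocount of 0.1 FPKM, and 2 genes, TRADD among them, on the most abundant transcript. Over all genes, the numbers higher were 325 with a pseudocount of 0.1 FPKM, 114 at a minimum of 5 FPKM, 360 after rescaling, 629 on the most abundant transcript and 315 on transcripts above 0 in both libraries; the numbers lower were 315 with a pseudocount of 0.1 FPKM, 271 on transcripts above 0 in both libraries, 120 at a minimum of 5 FPKM, 411 after rescaling and 570 on the most abundant transcript. A log2 value was said to have moved past a difference of 0.1, and a count past 1.5 times; 105 of 133 alternative values had not, and the median log2 ratio of all genes shifted by less than 0.1 under each scaling. No paired analysis was possible because each culture gave 1 library. Depth is unknown, so values below 1 FPKM, among them those of APAF1-210 and HTRA2-203 in the DMSO library, are the least certain.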
